A study of Mus musculus with 6 samples.

Results

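The 10 planar cell polarity core genes Vangl1, Vangl2, Celsr1, Celsr2, Celsr3, Prickle1, Prickle2, Ptk7, Ror2 and Dvl2 were followed in kidneys of mouse embryos at E13.5. They were chosen by name, and all 10 were found among the 21553 genes with a value. RNA came from 3 Fat4-/- mutant embryos and 3 Fat4+/+ wildtype embryos, with both kidneys of an embryo combined in 1 library, the dividing ureteric bud, condensing mesenchyme and stroma kept and most of the ureter taken off. All 6 embryos came from 1 pregnant female, with a strain labelled C57BL6/6 after 6 backcrosses (N6), and the part of Fat4 that the mutation removes was not stated in the labels. P-values therefore measure the spread between embryos of a single litter.

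Planar cell polarity is the alignment of cells within the plane of a tissue. In the core pathway, seven-pass cadherins of the Celsr family bridge neighbouring cells, while Frizzled with Dishevelled and Vangl with Prickle gather at opposite sides of each cell. The receptors Ptk7 and Ror2 act with noncanonical Wnt ligands such as Wnt5a. Fat4 and the Dachsous cadherins form a second polarity system, and in the kidney both systems are known for the shape and elongation of tubules.

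Levels are in cRPKM, the authors' corrected RPKM. RPKM divides reads by gene length and by the reads mapped in a library, and the steps of the correction were not given. Comparisons of level between genes, among them the shares of paralogs, assume that the corrected values share a scale. Summed over all genes, cRPKM ran from 477953 to 503223 in mutant and from 473695 to 496707 in wildtype libraries. Read totals are unknown, so no counting interval could be attached to single values. Steps between low values, searched near a factor of 1 only, gave relative depths of 0.902 to 1.04, with wildtype embryo 1 as the unit. Fat4 itself stood at 7.82, 7.20 and 7.49 cRPKM in mutant kidneys, against 16.74, 15.69 and 16.83 cRPKM in wildtype kidneys (log2 fold change -1.03, adjusted p = 0.000155), so its level separated the libraries by label. Defining markers of ureteric epithelium, nephron progenitors and stroma were present in every library, while the 4 gonad markers summed to at most 0.760 cRPKM in mutant and 1.14 cRPKM in wildtype kidneys. The 4 Y-linked genes summed to 69.6, 0.0800 and 0.150 cRPKM in mutant embryos 1, 2 and 3, against 65.3 to 73.0 cRPKM in wildtype embryos, so sex was uneven between the genotypes. In tissue libraries of this kind, fewer cells of a type and less RNA per cell cannot be told apart.

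None of the core genes passed the test between mutant and wildtype kidneys. Of the 10, 9 reached a mean of 1 cRPKM and were tested on log2(cRPKM + 1) with limma, and Celsr3 was too low. At an adjusted p under 0.05, 0 of 9 passed, against 1.43% of the 12315 genes tested, of which 0.552% were higher and 0.877% lower in mutant kidneys. At an unadjusted p under 0.05 there were 2 of 9, Prickle2 (lower in mutant) and Ptk7 (higher in mutant), against 13.0% of all genes. Mutant and wildtype values of the same 2 genes did not overlap, against 18.2% of all genes. Shares this near the background are no result about these genes as a group. Log2 fold changes of the 9 ran from -0.22 to 0.16 with a median of 0.02, against a median of -0.01 over all tested genes.

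**Figure D1:**
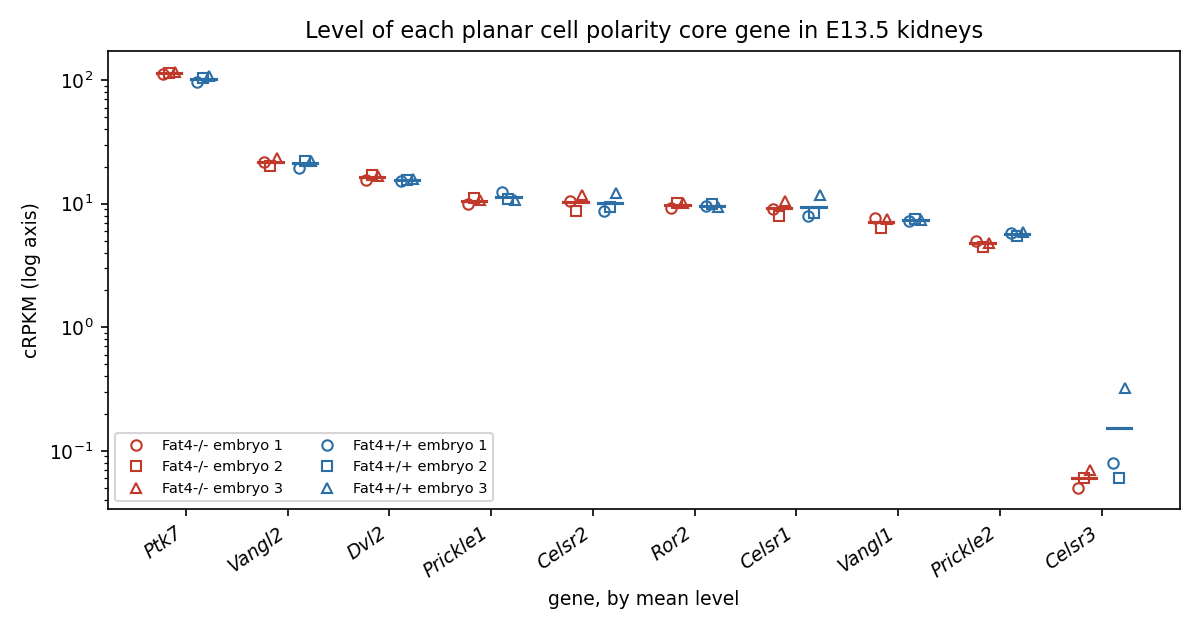
Level of each gene in cRPKM on a log axis, for 3 Fat4-/- (red) and 3 Fat4+/+ (blue) embryos, with symbols for embryo numbers and bars for group means. Ptk7 lies between 97.02 and 117.41 cRPKM, the next 8 genes between 4.47 and 23.23, and Celsr3 between 0.05 and 0.320.

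Levels spanned a wide range between the genes. Ptk7, a receptor-like protein with an inactive kinase domain, had the highest level, with a mean of 109 cRPKM over the 6 libraries, above at least 96.8% of all genes in each library. Vangl2, a four-pass membrane protein of the core pathway, came next at 21.6 cRPKM, 5.03 times lower, and Dvl2, a cytoplasmic transducer of Frizzled signals, followed at 16.0 cRPKM. Prickle1 (11.0 cRPKM), Celsr2 (10.2), Ror2 (9.74) and Celsr1 (9.28) formed a middle group, in which each gene's range over the 6 libraries overlapped that of its neighbour in the order. Vangl1 at 7.26 cRPKM and Prickle2 at 5.24 cRPKM lay below them, each with a range apart from its neighbours. Celsr3 averaged 0.107 cRPKM, 49.1 times lower than Prickle2, and without wildtype embryo 3, a setting added after its values were seen, 0.0640 cRPKM, 79.9 times lower than Prickle2.

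Stretches of DNA just before the transcription start are shown for Ptk7 and Celsr3, the extremes of level, for Celsr2, whose level moved with Celsr1 from embryo to embryo, and for Prickle2, which had the smallest p of the group. Each is the 250 bases before a RefSeq start (GRCm38.p6), written 5′ to 3′ on the gene's strand, with CpG dinucleotides in capitals. Ptk7 is read from the minus strand at chr17:46629505-46629754, Celsr3 from the plus strand at chr9:108825795-108826044, Celsr2 from the minus strand at chr3:108415580-108415829, and Prickle2 from the minus strand at chr6:92706185-92706434, the outermost of its 4 listed starts.
Ptk7: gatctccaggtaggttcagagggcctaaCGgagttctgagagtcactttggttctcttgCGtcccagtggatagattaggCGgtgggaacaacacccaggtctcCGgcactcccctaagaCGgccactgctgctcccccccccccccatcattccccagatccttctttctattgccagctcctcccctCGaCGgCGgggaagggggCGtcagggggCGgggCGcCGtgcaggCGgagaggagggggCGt
Celsr3: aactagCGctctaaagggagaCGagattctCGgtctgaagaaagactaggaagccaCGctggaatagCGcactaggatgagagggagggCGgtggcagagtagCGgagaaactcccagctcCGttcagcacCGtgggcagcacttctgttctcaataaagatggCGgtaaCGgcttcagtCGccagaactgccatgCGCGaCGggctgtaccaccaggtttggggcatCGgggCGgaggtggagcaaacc
Celsr2: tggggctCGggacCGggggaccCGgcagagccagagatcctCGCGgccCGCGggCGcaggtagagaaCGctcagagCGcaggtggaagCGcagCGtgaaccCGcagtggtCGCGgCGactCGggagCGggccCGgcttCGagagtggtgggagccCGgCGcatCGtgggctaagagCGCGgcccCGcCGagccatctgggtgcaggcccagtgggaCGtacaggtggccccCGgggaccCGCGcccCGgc
Prickle2: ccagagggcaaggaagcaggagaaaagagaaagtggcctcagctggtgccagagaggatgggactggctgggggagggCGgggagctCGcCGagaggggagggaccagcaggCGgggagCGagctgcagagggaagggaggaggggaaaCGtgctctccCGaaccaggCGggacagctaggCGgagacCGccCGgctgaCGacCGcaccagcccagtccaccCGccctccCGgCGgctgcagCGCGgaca
Ptk7 has 14 CpG in this window, Celsr3 17, Celsr2 32 and Prickle2 18, against a median of 6 over 32841 windows of the same length. The gene with the highest level and the gene with the lowest thus had similar CpG numbers. Promoters were matched for 8 of the 10 genes, in 12 windows, of which 9 had at least the median number of CpG. The 3 inner starts of Prickle2 had 4, 5 and 4, and which of its starts these kidneys used cannot be read from values per gene. The letters GGAATG, the core of the motif of the TEAD factors that act downstream of Hippo signalling, were found on either strand in 2 of the 12 windows (Ptk7, as cattcc, and Dvl2), against 12.6% of all windows. The letters CTTTGA, the core of the TCF and LEF motif of canonical Wnt signalling, were in 1 window, an inner start of Prickle2, against 13.8% of all windows. No window held both motifs.

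Among the receptors, Ptk7 lies on chromosome 17 (46564471 to 46629504 on GRCm38). It was at 111.49, 114.58 and 117.41 cRPKM in mutant kidneys, against 97.02, 103.86 and 107.33 cRPKM in wildtype kidneys. Every mutant value lay above every wildtype value, as it did for 7.23% of all tested genes. The means were 114 ± 2.96 in mutant and 103 ± 5.25 cRPKM in wildtype kidneys (SD, n = 3 each), a log2 fold change of 0.16 with a 95% interval from 0.04 to 0.27, which did not pass after adjustment (adjusted p = 0.203). The mutant values above the wildtype range include that of embryo 1, whose Y-linked genes were as high as in wildtype embryos. This follows from the separation of the groups and is no separate test of sex. With the Y-linked level as a covariate the log2 fold change was 0.12. Mutant embryo 1 is the single mutant with Y-linked expression, so a fit with this covariate in effect sets that embryo against the 3 wildtype embryos, here and for the genes below.

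Ror2, a receptor tyrosine kinase for Wnt5a, lies on chromosome 13 (53109312 to 53286124). It was at 9.31, 10.09 and 10.11 cRPKM in mutant kidneys, against 9.60, 9.91 and 9.44 cRPKM in wildtype kidneys. The groups overlapped, and the log2 fold change of 0.02 had a 95% interval from -0.08 to 0.13 (adjusted p = 0.879). Ror2 was the steadiest of the 9 genes, with a coefficient of variation over the 6 libraries of 3.50%, lower than that of Ptk7 at 6.89%. The median coefficient of variation of all tested genes was 5.44%.

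The Celsr cadherins span the gap between cells and bind each other across it. Celsr1 (chromosome 15, 85898929 to 86033777) was at 9.08, 7.99 and 10.48 cRPKM in mutant kidneys, against 7.98, 8.45 and 11.69 cRPKM in wildtype kidneys. Celsr2 (chromosome 3, 108390851 to 108415552) was at 10.50, 8.78 and 11.79 cRPKM in mutant kidneys, against 8.65, 9.40 and 12.12 cRPKM in wildtype kidneys. For both genes embryo 3 was the highest of its genotype, and the groups overlapped. Neither genotype difference passed: the log2 fold change of Celsr1 was -0.02 with a 95% interval from -0.32 to 0.29 (adjusted p = 0.977), and that of Celsr2 was 0.04 with an interval from -0.25 to 0.33 (adjusted p = 0.931). These were the widest intervals of the 9 genes. The sign for Celsr1 was not stable, with a log2 fold change of 0.14 without wildtype embryo 3 and 0.07 without mutant embryo 2.

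Celsr1 and Celsr2 varied more between embryos than most genes, with coefficients of variation of 16.2% and 14.8%, higher than those of 93.9% and 92.7% of all tested genes. They varied together. Across the 6 libraries Pearson's r of log2(cRPKM + 1) was 0.97 (exact permutation p = 0.00278, the smallest that 6 libraries can give) and Spearman's rho was 1.00 (exact permutation p = 0.00278). Over the 36 pairs of tested genes compared in this way, the adjusted p was 0.1 for each. A single pair at the smallest possible p cannot go below this over 36 pairs, so the correction cannot decide about the relation. Without the 2 libraries farthest from the median of Celsr1, r was 1.00, and after removal of the genotype means it was 0.99. This pair had the highest r of the 36. How many other genes follow Celsr1 or Celsr2 as closely was not counted, so the relation cannot be called particular to them. With Prickle2, Ptk7 and Dvl2, 480, 398 and 348 genes had r above 0.9. The other pairs with an unadjusted exact permutation p under 0.05 for r were Ptk7 with Dvl2 (r = 0.84), Vangl2 with Celsr2 (0.83) and Prickle2 with Ptk7 (-0.82), all with an adjusted p of 0.350.

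**Figure D2:**
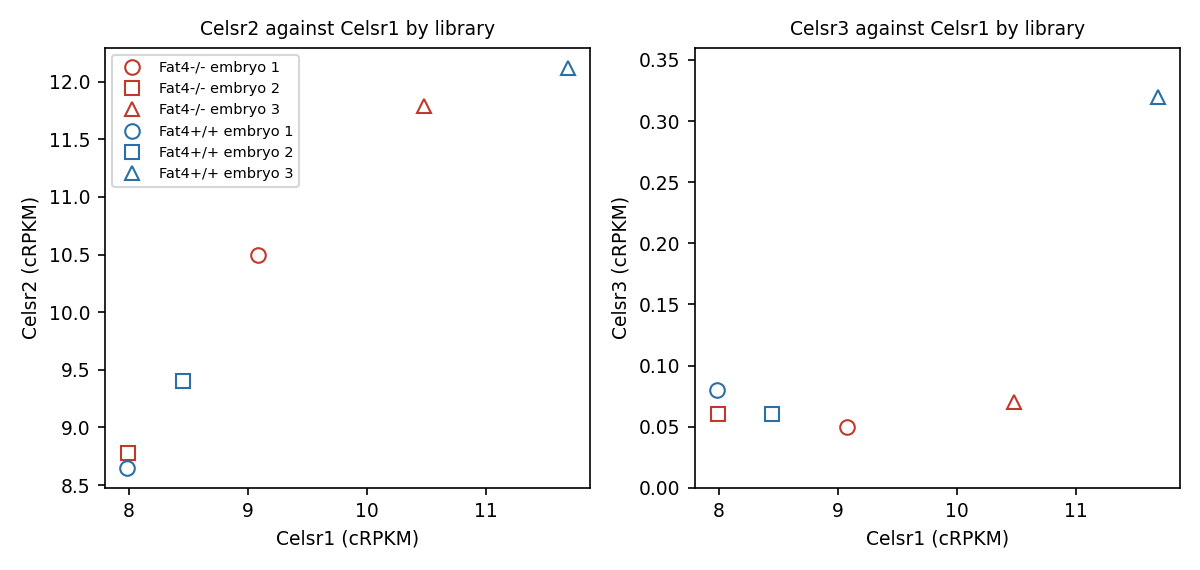
Celsr2 (left) and Celsr3 (right) against Celsr1 in cRPKM, 1 symbol for each of 3 Fat4-/- (red) and 3 Fat4+/+ (blue) embryos. Celsr2 follows Celsr1 through both genotypes, whereas Celsr3 stands at 0.320 cRPKM in wildtype embryo 3 and at 0.08 or less in the other libraries.

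Among the 6 libraries, summed markers of ureteric epithelium, early nephron and podocytes were also highest in wildtype embryo 3. Those of the ureteric bud tip and of nephron progenitors were highest in mutant embryo 3. The 11 ureteric epithelium markers with values summed to 306, 314 and 305 cRPKM in mutant embryos 1, 2 and 3. In wildtype embryos 1, 2 and 3 they summed to 320, 329 and 378 cRPKM, so embryo 3 was highest only in wildtype. The 8 early nephron markers summed to 123, 124 and 138 cRPKM in mutant embryos 1, 2 and 3, against 127, 145 and 166 cRPKM in wildtype embryos 1, 2 and 3, with embryo 3 the highest of each genotype as for Celsr1 and Celsr2. The 5 podocyte markers summed to 21.8 to 25.4 cRPKM in mutant kidneys, against 26.7 to 35.4 cRPKM in wildtype kidneys. The 6 ureteric bud tip markers summed to 195, 194 and 207 cRPKM in mutant embryos 1, 2 and 3. In wildtype embryos 1, 2 and 3 they summed to 159, 174 and 189 cRPKM. Embryo 3 was the highest of each genotype here too. The order of embryos within each genotype was that of Celsr1 and Celsr2, with mutant embryos 1 and 2 nearly equal. The 8 nephron progenitor markers summed to 390 to 441 cRPKM in mutant kidneys, against 331 to 367 cRPKM in wildtype kidneys. In limma, 2 of these 8 passed as higher in mutant kidneys, against 0.552% of all tested genes. Of the 8 early nephron markers 1 passed as lower, against 0.877% of all tested genes. No tested marker of ureteric epithelium, podocytes or the ureteric bud tip passed. The 5 erythroid markers summed to 907, 1453 and 988 cRPKM in mutant embryos 1, 2 and 3. In wildtype embryos 1, 2 and 3 they summed to 1058, 1399 and 686 cRPKM. Unlike the lists above, this sum was highest in mutant embryo 2 and lowest in wildtype embryo 3. None of these lists had a marker at 0 in all libraries, and their part in the levels of Celsr1 and Celsr2 was not tested.

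Celsr3, the family member known mainly from developing neurons, lies on chromosome 9 (108826320 to 108852969). It was at 0.05, 0.06 and 0.07 cRPKM in mutant kidneys, against 0.08, 0.06 and 0.320 cRPKM in wildtype kidneys. A single library, wildtype embryo 3, stood above the rest, and the other 5 lay at or under 0.08. The 6 nerve and neural crest markers used summed to 15.7 to 19.2 cRPKM in mutant kidneys, against 17.6, 14.4 and 19.8 cRPKM in wildtype embryos 1, 2 and 3. Within that list Tubb3 and Th, picked out after their values were seen, were at 4.57 and 1.41 cRPKM in wildtype embryo 3, and in the other 5 libraries at no more than 1.25 and 0.370 cRPKM. Their part in the level of Celsr3 was not tested.

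The Vangl proteins are four-pass membrane proteins that recruit Prickle. Vangl2 (chromosome 1, 172000960 to 172028444) was at 21.86, 20.25 and 23.23 cRPKM in mutant kidneys, against 19.53, 22.34 and 22.36 cRPKM in wildtype kidneys. The groups overlapped, with a log2 fold change of 0.02 and a 95% interval from -0.13 to 0.18 (adjusted p = 0.923). Vangl1 (chromosome 3, 102153583 to 102204693) was at 7.66, 6.30 and 7.47 cRPKM in mutant kidneys, against 7.26, 7.49 and 7.40 cRPKM in wildtype kidneys. Mutant embryo 2 was the lowest library, and the wildtype values were tight, with an SD of 0.116 cRPKM (n = 3). Its log2 fold change was -0.05 with a 95% interval from -0.20 to 0.11 (adjusted p = 0.836), and 0.03 without that embryo. Vangl1 and Celsr2 share chromosome 3 with Fat4, at distances of 63.1 and 69.4 Mb from it on GRCm38.

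The Prickle proteins are cytoplasmic partners of Vangl. Prickle2 (chromosome 6, 92370908 to 92706155) was at 5.01, 4.47 and 4.81 cRPKM in mutant kidneys, against 5.81, 5.47 and 5.85 cRPKM in wildtype kidneys. Every mutant value lay below every wildtype value, as it did for 11.0% of all tested genes. The means were 4.76 ± 0.273 in mutant and 5.71 ± 0.209 cRPKM in wildtype kidneys (SD, n = 3 each), 83.4% of the wildtype level. The log2 fold change of -0.22 had a 95% interval from -0.34 to -0.10 and the lowest adjusted p of the 9 genes, which did not pass (adjusted p = 0.09998). The mutant values below the wildtype range include that of embryo 1, which again is no separate test of sex. With the Y-linked level as a covariate the log2 fold change was -0.16.

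Prickle1 (chromosome 15, 93499114 to 93595891) was at 9.98, 11.02 and 10.63 cRPKM in mutant kidneys, against 12.45, 10.94 and 10.73 cRPKM in wildtype kidneys. Wildtype embryo 1 stood above the other 5 libraries, among which the genotypes overlapped. The log2 fold change was -0.10 with a 95% interval from -0.24 to 0.04 (adjusted p = 0.577), and -0.04 without wildtype embryo 1.

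Dvl2 (chromosome 11, 70000595 to 70012301) was at 15.58, 17.15 and 16.77 cRPKM in mutant kidneys, against 15.15, 15.61 and 15.80 cRPKM in wildtype kidneys. Mutant embryos 2 and 3, in which the Y-linked genes were near 0, were above the wildtype range, while mutant embryo 1 lay within it. The log2 fold change was 0.08 with a 95% interval from -0.02 to 0.19 (adjusted p = 0.516), and 0.01 with the Y-linked level as a covariate. The annotated exons of Dvl2 share 1151 bases with those of Acadvl, a fatty acid oxidation gene on the opposite strand, which was at 20.68 to 22.98 cRPKM in mutant and 21.19 to 22.92 cRPKM in wildtype kidneys. Whether the authors counted reads by strand was not stated in the labels or the file, so reads of these genes may not have been separated. No other of the 10 genes shared exon bases with another gene in the table.

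Within a family, the share of each paralog in a library does not depend on how the library was scaled. Vangl2 made up 75.3% ± 1.15 of the summed Vangl level in mutant and 74.3% ± 1.23 in wildtype kidneys (SD, n = 3 each, exact permutation p = 0.4). Celsr1 made up 46.9% ± 0.610 of the Celsr level in mutant and 47.8% ± 0.634 in wildtype kidneys, and Celsr2 52.8% ± 0.661 and 51.5% ± 1.15 (exact permutation p = 0.2 for each). So although the summed Celsr level moved from embryo to embryo, its division between Celsr1 and Celsr2 stayed within 46.3% to 48.4% for Celsr1. Prickle1 made up 68.9% ± 2.28 of the Prickle1 and Prickle2 level in mutant and 66.5% ± 1.74 in wildtype kidneys (SD, n = 3 each, exact permutation p = 0.3). Adjusted over the 4 shares each p was 0.4, and 3 embryos against 3 cannot go below 0.1 in this 2-sided test.

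Other core components of the pathway were also tested. Of 9 (Dvl1, Dvl3, Fzd3, Fzd6, Fzd7, Ankrd6, Prickle3, Prickle4 and Scrib), 0 passed in limma (1.43% of all genes did) and 3 had an unadjusted p under 0.05 (13.0% of all genes), with a median log2 fold change of -6.85e-05. Ankrd6, the mouse relative of the fly core protein Diego, was at 11.26, 11.01 and 11.67 cRPKM in mutant kidneys, against 9.52, 10.23 and 9.59 cRPKM in wildtype kidneys. Its groups did not overlap (log2 fold change 0.19, SE 0.0454, adjusted p = 0.0911). The Frizzled receptor gene Fzd6 was at 6.44, 6.53 and 6.48 cRPKM in mutant kidneys, against 6.92, 7.18 and 7.76 cRPKM in wildtype kidneys (log2 fold change -0.15, adjusted p = 0.259). Fzd7 went the other way without overlap, at 57.29, 60.95 and 60.44 cRPKM in mutant, against 53.25, 56.77 and 53.33 cRPKM in wildtype kidneys (log2 fold change 0.13, adjusted p = 0.263). Fzd3 was lower in mutant kidneys, with overlapping groups (log2 fold change -0.17, adjusted p = 0.478).

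Of 10 tested ligands and co-receptors of noncanonical Wnt signalling, 0 passed in limma (1.43% of all genes did) and 4 had an unadjusted p under 0.05 (13.0% of all genes), with a median log2 fold change of -0.04. Wnt5a, the ligand of Ror2, was at 7.25, 6.17 and 6.90 cRPKM in mutant kidneys, against 8.39, 8.46 and 8.54 cRPKM in wildtype kidneys. The mutant mean was 80.0% of the wildtype mean and the groups did not overlap (log2 fold change -0.29, SE 0.0574, adjusted p = 0.0590). It passed with library weights (adjusted p = 0.0424), and over all alternatives its adjusted p ran from 0.0424 to 0.770. Wnt7b, a ligand made by the ureteric epithelium, was at 2.03, 2.19 and 2.17 cRPKM in mutant kidneys, against 2.57, 2.79 and 3.36 cRPKM in wildtype kidneys (log2 fold change -0.32, SE 0.0789, adjusted p = 0.110). The ureteric epithelium markers, of which Wnt7b is one, also summed lower in mutant kidneys, and their part in its level was not tested.

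**Figure D3:**
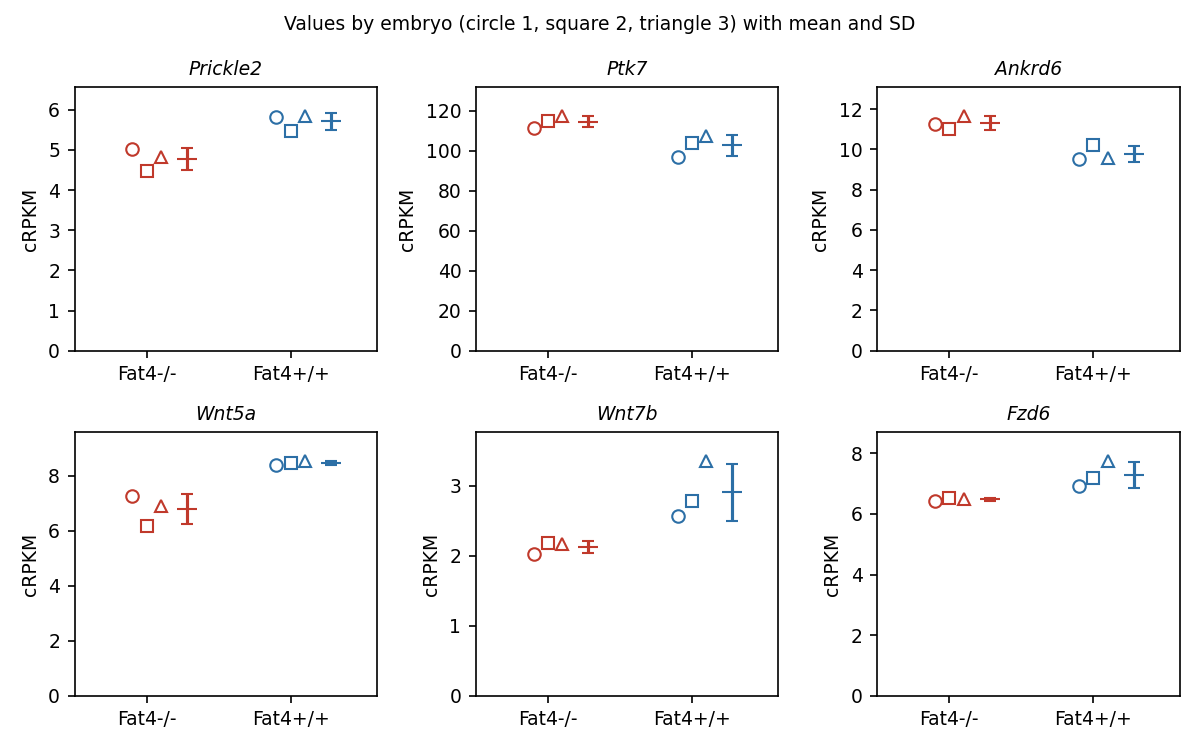
cRPKM by embryo for the 2 genes with the smallest p in each of the core, other core component and noncanonical Wnt lists. Fat4-/- (red) stands left of Fat4+/+ (blue), with mean and SD (n = 3). In all 6 panels the genotypes do not overlap, as for 18.2% of all tested genes. None of the genes passed after adjustment in the main fit. Fzd2, the next in the Wnt list (limma, unadjusted p = 0.00892), was higher in mutant kidneys (log2 fold change 0.23). Its groups overlapped and it is not shown.

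Of 18 tested effectors and regulators, among them the ciliary planar polarity proteins Intu and Fuz, small GTPases and the Rock kinases, 0 passed in limma (1.43% of all genes did) and 2 had an unadjusted p under 0.05 (13.0% of all genes). Their median log2 fold change was -0.04. Dact1, a Dishevelled-binding regulator, was at 23.30, 25.49 and 26.02 cRPKM in mutant kidneys, against 30.41, 30.33 and 25.24 cRPKM in wildtype kidneys, with overlapping groups (log2 fold change -0.19, adjusted p = 0.336). Daam1, a formin that binds Dishevelled, was at 8.59, 7.50 and 8.44 cRPKM in mutant kidneys, against 8.96, 8.80 and 9.94 cRPKM in wildtype kidneys (log2 fold change -0.16, adjusted p = 0.344). In the Fat and Dachsous system Fat4 was the 1 of 5 tested genes to pass, and the other 4 had log2 fold changes from -0.08 to 0.09.

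**Figure D4:**
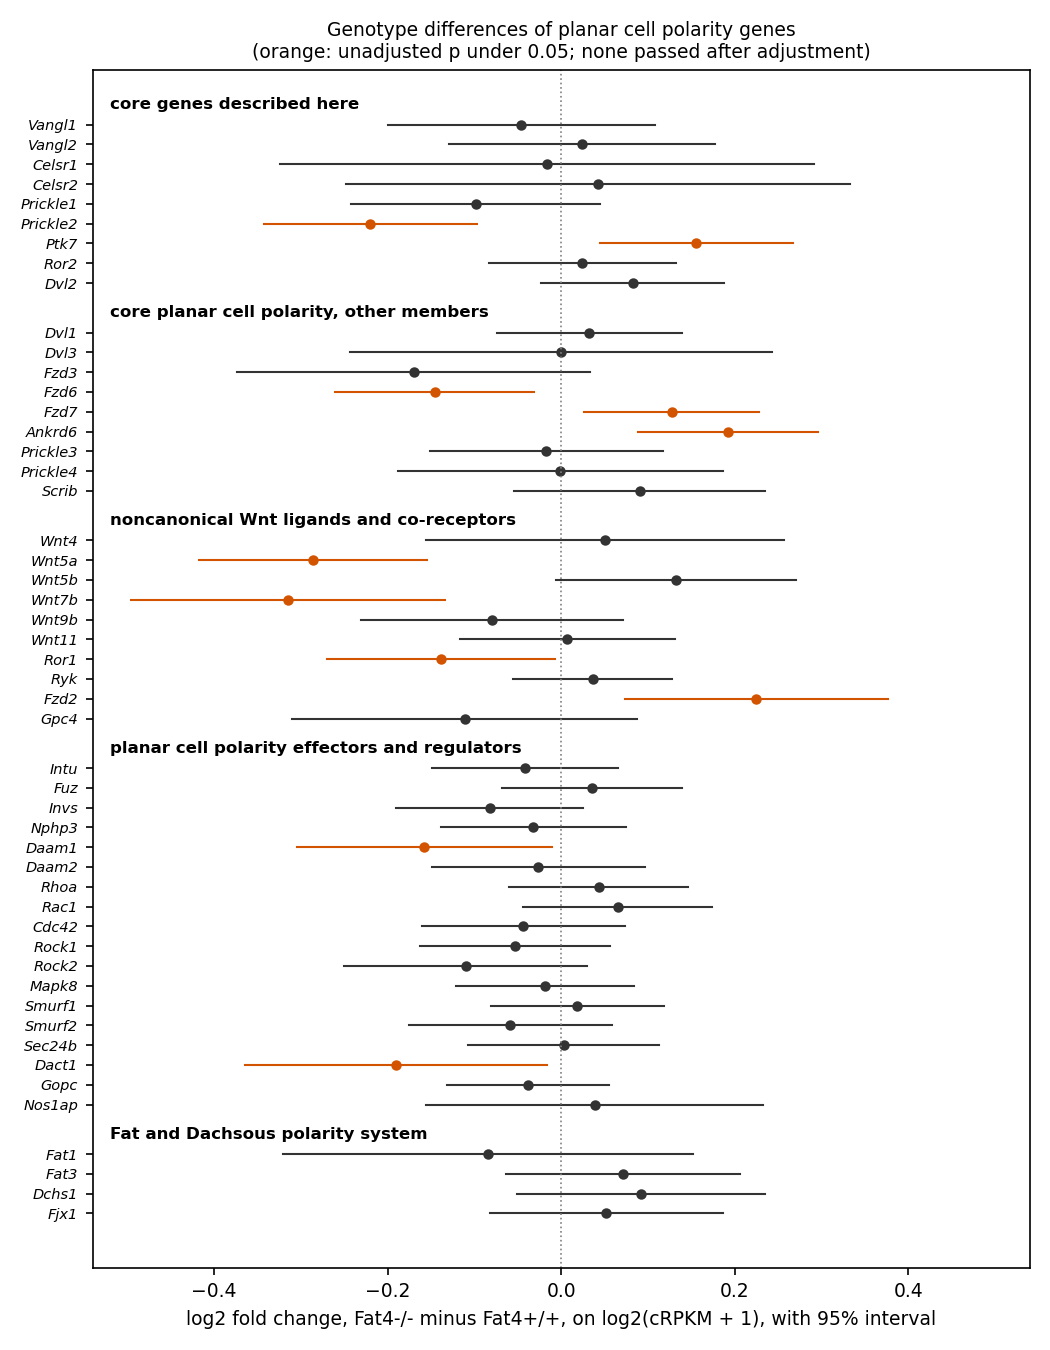
Log2 fold change of Fat4-/- over Fat4+/+ kidneys on log2(cRPKM + 1), with 95% intervals, for the 9 tested core genes and the other tested genes of the pathway lists, Fat4 left out. Among the core genes the intervals of Prickle2 (-0.34 to -0.10) and Ptk7 (0.04 to 0.27) exclude 0 before adjustment, and those of Celsr1 and Celsr2 are the widest.

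The genes whose levels followed the 3 core genes with the smallest p most closely over the 6 libraries were found by Pearson's r, as a description. Nearest to Prickle2 were Flrt2, Prc1 and Ptplad2 (r = 1.00, 0.99 and 0.99). Flrt2, for an adhesion protein, was at 19.10, 16.96 and 18.05 cRPKM in mutant kidneys, against 23.69, 21.44 and 23.84 cRPKM in wildtype kidneys. It passed as lower in limma (adjusted p = 0.0352), as did 0.877% of all tested genes. Prickle2 and Ptk7 were picked here for a small genotype p. Genes that follow them closely therefore tend to differ by genotype too, which is no separate result. Nearest to Ptk7 were Aacs, Etv4 and Mapk1ip1l (r = 1.00, 0.99 and 0.99). Etv4, a transcription factor of the ureteric bud tip, was at 52.10, 55.95 and 56.69 cRPKM in mutant kidneys, against 41.17, 47.38 and 49.15 cRPKM in wildtype kidneys (adjusted p = 0.129). Nearest to Dvl2 were Isyna1, Bcat2 and Wdr5 (r = 1.00, 1.00 and 0.99). With 6 libraries such values are common: 480, 398 and 348 genes had r above 0.9 with Prickle2, Ptk7 and Dvl2.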

How the data were processed

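RNA-seq libraries of 6 embryos were analysed from the 1 table that the authors deposited, in RPKM corrected to cRPKM; the steps of that correction are not given in the sources used here. Reads were trimmed, per the file headers, and Bowtie and the build mm9 are named, without versions, in the submitters' processing notes. Columns were matched to samples by the header text in each sample's description. Of 22667 genes, 1114 held no value. Genes averaging 1 cRPKM or more (12315) entered limma 3.58.1 (R 4.3.3) on log2(cRPKM + 1), with lmFit and eBayes with trend, 2-sided and with genotype alone, adjusted by the Benjamini-Hochberg method over all tested genes and called at 0.05. Fold changes are mutant minus wildtype on that scale, which understates changes of low genes. Intervals are 95% from the same fit. Shares and correlations used exact permutation tests (SciPy 1.17.1). Relative depth came from ratios of values under 3 cRPKM explained by at most 3 reads a side within 1.5%, which accounted for 17 to 23 of 28 to 35 genes a library. The limma step was tested on simulated data.

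The members and gene lists were chosen with earlier results of these data known. Named genes were the core genes, Fat4, and in each pathway list the called genes or otherwise the 2 with the smallest p. The 3 genes nearest in pattern to the 3 core genes with the smallest p were named too. Tubb3, Th, Acadvl, Fzd2, Fzd3 and Fzd7 were added after their values were seen. Gene positions are from GENCODE M21 on GRCm38, joined by Ensembl identifier, and differ from mm9 positions. Promoters are from RefSeq. Wdpcp and Dchs2 were not analysed here, and 1 marker gene is not reported here. Alternatives covered the pseudocount, the filter, scaling, an embryo-number block, a Y-linked covariate, library weights, the variance trend and each library left out.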

Additional observations from a re-analysis of the deposited data

How the results depend on the processing

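No core gene was called under any of the 16 alternatives to the fit. Over them the log2 fold change of Prickle2 ran from -0.26 to -0.16 (adjusted p 0.0669 to 0.974) and that of Ptk7 from 0.12 to 0.19 (adjusted p 0.0860 to 1.00), each with its sign kept. Signs changed for genes near 0. Celsr1 was at 0.00703 with quantile normalisation, 0.0717 with library weights, and from -0.112 to 0.137 with 1 library left out. With the Y-linked covariate Vangl1 was at 0.0465 and Ror2 at -0.0468, and Ror2 was at -0.00444 with library weights. With 1 library left out Vangl1 ran from -0.0923 to 0.0309, Vangl2 from -0.0377 to 0.0733 and Celsr2 from -0.0493 to 0.172. Over all genes, 176 calls became 32 without a filter, 109 at a minimum of 5 cRPKM, 2 with the covariate, and 24 to 132 with 1 library left out. Library weights called 2 pathway genes in place of 1, adding Wnt5a. The cause of these shifts was not tested. Embryo numbers were not taken as pairs in the main fit. Deviations of same-numbered embryos correlated at 0.0985, 0.205 and 0.277. Mutant embryo 1 correlated slightly better with wildtype embryo 3 (0.106), and mutant embryo 2 with wildtype embryo 1 (0.227). The remaining differently numbered pairs were at -0.352, -0.247, 0.0593 and -0.373. These values do not settle whether same-numbered embryos belong together. With embryo number as a replicate block 273 genes were called, none of them a core gene. Differences in paralog shares kept their sign in each setting tried but not their size: with 1 library left out, mutant minus wildtype ran from 0.317 to 1.66 percentage points for Vangl2, from 1.19 to 3.47 for Prickle1, from -1.22 to -0.587 for Celsr1 and from 0.686 to 1.81 for Celsr2. The read totals behind the low values of Celsr3 are unknown.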
